A study of Homo sapiens with 27 samples.

Results

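Laminin-332 and hemidesmosome genes were followed across RNA-seq libraries of SUM159 and MDA-MB-231, human cell lines of triple negative breast cancer (TNBC). The genes were taken by name as parts of laminin-332, of the hemidesmosome and of laminin-332 receptors: the laminin chains LAMA3 and LAMB3, the transmembrane collagen COL17A1, the integrin chains ITGA6, ITGB4 and ITGA3, the plakins DST and PLEC, and the tetraspanin CD151. The choice was made with earlier results of these data known. They are 9 of the 57165 genes quantified, and each of the 9 was above the filter on low counts in every comparison. The study asked what follows when ZEB1, a transcription factor of epithelial-mesenchymal transition (EMT), is silenced by dCas9-KRAB, a nuclease-dead Cas9 joined to the KRAB repressor domain. The 27 libraries form 9 groups of 3, which the labels call biological replicates and the methods describe as individual clones.

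In SUM159 the groups were wild type, which was not transduced, and 3 groups that all carried dCas9-KRAB: one without a guide RNA (No gRNA), one with guide 4 against the ZEB1 promoter (gRNA 4) and one with all 4 guides (All gRNA). Transduced cells of every group, No gRNA included, were selected with puromycin. These libraries are taken as run 1, and 3 further SUM159 wild type libraries carry run 2 in their titles. The MDA-MB-231 groups, all taken as run 2, were wild type, No gRNA and 2 ZEB1-targeted groups. Other titles name no run, so those libraries were placed by the prefix of their column names, B1 or B2. The labels do not explain that prefix. Titles and column names of the 6 targeted MDA-MB-231 libraries contradict each other on the guides. These libraries are therefore named set 1 (title gRNA 4, column all guides) and set 2 (title all guides, column gRNA 4), and neither was assigned to a guide condition.

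Laminin-332 is a basement membrane trimer that holds the products of LAMA3 and LAMB3, and it anchors epithelial cells to the underlying matrix. The integrin made of the ITGA6 and ITGB4 chains binds laminin-332 and, with COL17A1, plectin (PLEC) and the epithelial form of dystonin (DST), builds the hemidesmosome, which ties keratin filaments to the basement membrane. The ITGA3 chain forms a second laminin-332 receptor with ITGB1, and CD151 is a tetraspanin that associates with laminin-binding integrins. ZEB1 is best known as a repressor that binds E-box motifs in the promoters of epithelial genes.

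The sequences below are the 250 bases before the annotated start sites of the 3 matrix-facing genes LAMB3, LAMA3 and COL17A1, written in the direction of transcription with RefSeq coordinates on GRCh38.p14. They are shown because LAMB3 and COL17A1 were the members with the greatest changes after ZEB1 repression. Capitals mark the E-box CACCTG or its reverse complement CAGGTG, the form of the motif that was searched on both strands.
LAMB3, chr1:209652426-209652675, minus strand: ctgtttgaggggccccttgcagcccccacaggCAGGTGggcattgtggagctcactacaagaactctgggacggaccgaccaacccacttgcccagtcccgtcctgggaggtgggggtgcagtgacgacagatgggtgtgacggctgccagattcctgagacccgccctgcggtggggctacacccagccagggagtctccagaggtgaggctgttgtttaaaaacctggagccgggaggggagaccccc
LAMA3, chr18:23872770-23873019, plus strand: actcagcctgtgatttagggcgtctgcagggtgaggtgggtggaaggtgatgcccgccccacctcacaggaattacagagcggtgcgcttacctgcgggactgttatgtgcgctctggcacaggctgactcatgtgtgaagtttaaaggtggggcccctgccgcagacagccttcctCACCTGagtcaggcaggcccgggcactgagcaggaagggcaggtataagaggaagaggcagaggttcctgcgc
COL17A1, chr10:104085881-104086130, minus strand: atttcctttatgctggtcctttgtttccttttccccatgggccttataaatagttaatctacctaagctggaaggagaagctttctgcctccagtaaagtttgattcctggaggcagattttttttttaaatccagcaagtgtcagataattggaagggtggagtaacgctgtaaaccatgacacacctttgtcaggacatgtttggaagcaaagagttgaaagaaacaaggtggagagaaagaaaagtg
The LAMB3 sequence precedes the start of the canonical transcript and holds CAGGTG at bases -218 to -213 from the start. The LAMA3 sequence precedes an internal start and not that of the canonical transcript at base 23689453, and holds CACCTG at bases -73 to -68. The COL17A1 sequence, before the canonical start, holds neither form. RefSeq windows were at hand for 5 of the 9 members (10 windows: 3 each of LAMB3 and DST, 2 of ITGA6 and 1 each of LAMA3 and COL17A1), and 3 of the 10 held the motif. The remaining one was an ITGA6 window with CACCTG at bases -136 to -131 and again at -46 to -41. Of all 35116 windows of the same length, 17.5% held the motif. These matches describe the letters only, and binding was not measured here.

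Libraries held 15461200 to 21473757 estimated counts. Levels are given as CPM, counts scaled to library size with TMM factors over all 27 libraries. ZEB1 itself checked the labels: it ranged from 70.4 to 122 CPM in the No gRNA libraries of both lines and from 0.375 to 5.78 CPM in the 12 targeted libraries, a log2 fold change of -6.70 in All gRNA, -4.45 in gRNA 4, -4.36 in set 1 and -4.54 in set 2. Against the TNBC label, ESR1, PGR and ERBB2 together summed to 38.1 to 73.0 CPM in any library, with ESR1 at most 0.185 CPM and PGR at most 0.959 CPM. The epithelial markers CDH1 and EPCAM were near 0 in SUM159 No gRNA (at most 0.0296 CPM and 0 CPM), and CDH1 was at most 1.02 CPM in MDA-MB-231 No gRNA. The summed leukocyte markers reached at most 0.294 CPM. Epithelial junction and luminal markers (8 genes) summed to 352 to 366 CPM in SUM159 No gRNA, to 440 to 476 CPM in its targeted groups, to 910 to 953 CPM in MDA-MB-231 No gRNA, to 1630 to 1730 CPM in set 1 and to 2943 to 3059 CPM in set 2. Mesenchymal markers (5 genes, ZEB1 among them) summed to 7024 to 7157 CPM in SUM159 No gRNA, 5926 to 6640 CPM in gRNA 4, 6071 to 6724 CPM in All gRNA, 5618 to 5881 CPM in MDA-MB-231 No gRNA, 4339 to 4572 CPM in set 1 and 5192 to 5263 CPM in set 2. By the moderated test defined below, 3 of the 5 fell and 1 rose in each SUM159 group, 4 fell and 1 rose in set 1, and 3 fell and 2 rose in set 2. Of 3 endothelial markers PECAM1 alone was above the filter on low counts, and the 3 summed to at most 7.94 CPM. PECAM1 rose in All gRNA (1.42, moderated adjusted p = 0.0393), fell in set 2 (-1.94, adjusted p = 0.00317) and did not pass the test in gRNA 4 (1.29, adjusted p = 0.0624) or set 1 (-0.64, adjusted p = 0.171). The part of these marker lists in the results below was not tested. In bulk libraries, a change in the share of cells that express a gene cannot be told apart from a change in RNA per cell.

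Differences were tested with voom-limma over all genes, in a fit of the 12 libraries of a line. A gene is called here when TREAT, which tests against a 2-fold change, gave an adjusted p below 0.05, and is said to have risen or fallen when the moderated test against no change did. In SUM159, 2 of the 9 members were called in All gRNA relative to No gRNA, where 0.396% of 15147 genes were called, and the same 2 members, LAMB3 and COL17A1, were called in gRNA 4, where 0.39% were. By the moderated test 6 members rose in All gRNA, where 5.93% of genes rose and 4.89% fell (10.8% in all), and 4 rose in gRNA 4, where 6.11% rose and 4.91% fell (11% in all). None fell in either, also at an unadjusted p under 0.05 and by edgeR and DESeq2. The libraries of 6 members did not overlap with No gRNA in All gRNA (29.5% of genes), and those of 6 did not in gRNA 4 (29.5% of genes). The median log2 fold change of the 9 was 0.58 in All gRNA and 0.41 in gRNA 4, beside 0 over all genes in both. In MDA-MB-231, 1 member, LAMB3, was called in set 1 (1.47% of 15721 genes) and 0 in set 2 (4.14% of genes). TREAT also gave 0 in set 2 at an unadjusted p under 0.05, as edgeR and DESeq2 did after adjustment. The moderated test gave 4 members higher and 0 lower in set 1 (20.4% and 17.3% of genes, 37.8% in all), and 2 higher and 3 lower in set 2 (27.3% and 25.1% of genes, 52.4% in all). The 0 lower in set 1 was also 0 at an unadjusted p under 0.05 and by edgeR and DESeq2, but DST was lower there with library totals in place of TMM (-0.33, adjusted p = 0.0488) and without set 1 replicate 3 (-0.38, adjusted p = 0.0184). The 4 in set 1 were 2 without No gRNA replicate 1 or 2 or set 1 replicate 1, and 2 by edgeR and by DESeq2. Libraries of 5 members did not overlap with No gRNA in set 1 (48.9% of genes), and those of 5 did not in set 2 (59.7% of genes). Within a line the 2 targeted groups share their No gRNA libraries.

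**Figure D1:**
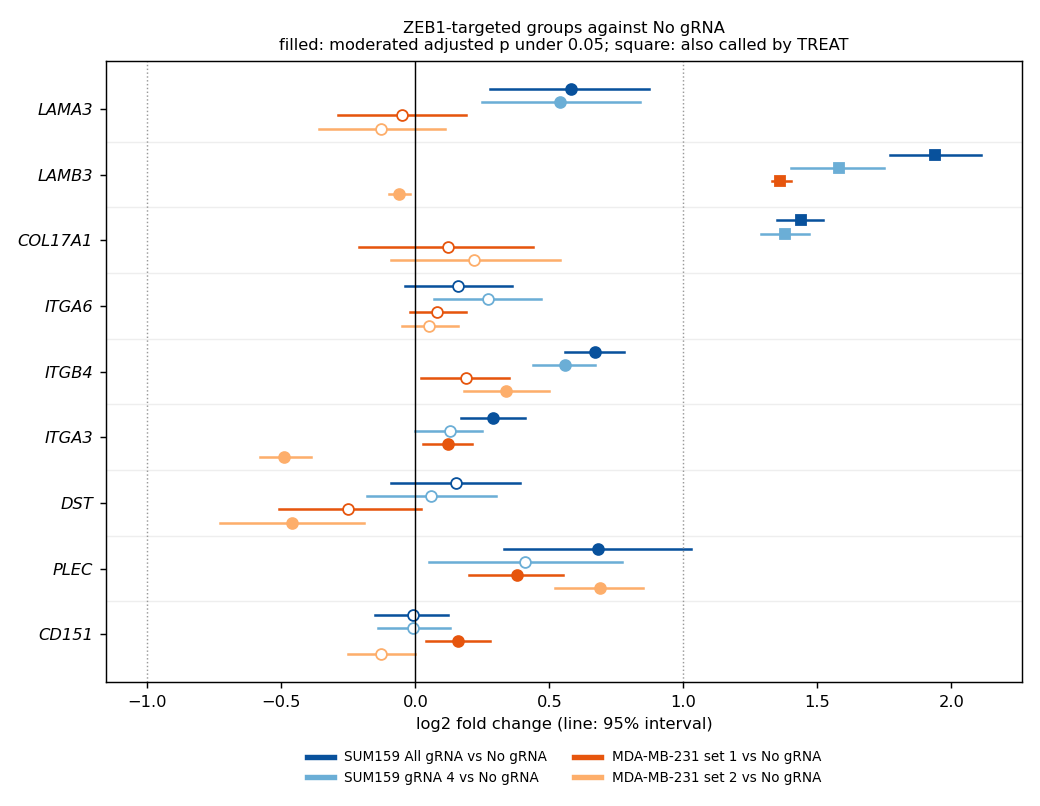
Log2 fold change of each of the 9 genes (rows) in the 4 ZEB1-targeted groups relative to No gRNA of the same line, with 95% intervals; filled symbols passed the moderated test and squares were also called by TREAT, and dotted lines mark a 2-fold change. LAMB3 lies at 1.94, 1.58 and 1.36 in 3 groups and at -0.06 in set 2, COL17A1 at 1.44 and 1.38 in SUM159 and at 0.12 and 0.22 in MDA-MB-231, and the other 7 genes lie between -0.49 and 0.69.

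LAMB3 (chr1:209614870-209652425, minus strand; all gene coordinates are of GENCODE v44 on GRCh38) encodes the beta chain of laminin-332 and rose after ZEB1 repression in SUM159. Its level was 105, 116 and 101 CPM in the 3 No gRNA libraries, 298, 344 and 323 CPM in gRNA 4, and 437, 417 and 378 CPM in All gRNA. All 6 targeted libraries were above all 3 No gRNA libraries, and the gRNA 4 and All gRNA libraries did not overlap each other. The log2 fold change was 1.94 ± 0.08 (SE, n = 3) in All gRNA (3.84-fold, TREAT adjusted p = 7.13e-05) and 1.58 ± 0.08 in gRNA 4 (2.98-fold, TREAT adjusted p = 0.00244).

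In MDA-MB-231 the LAMB3 level depended on the targeted set. It was 1302, 1281 and 1280 CPM in No gRNA, 3299, 3310 and 3345 CPM in set 1, and 1225, 1224 and 1238 CPM in set 2. Set 1 was 2.57-fold above No gRNA (log2 fold change 1.36 ± 0.02, TREAT adjusted p = 5.70e-08), whereas set 2 lay slightly under it (-0.06 ± 0.02, moderated adjusted p = 0.0174). That small difference (-0.05) no longer passed the test without replicate 1 (adjusted p = 0.0610) or 2 (0.108) of No gRNA or replicate 1 (0.0724) or 2 (0.0685) of set 2. Between the sets, LAMB3 was lower in set 2 (log2 fold change -1.42 ± 0.02, TREAT adjusted p = 7.68e-09), the 1 member called of the 9 where 3.07% of genes were. The ZEB1 libraries of the sets overlapped, at 4.77, 5.54 and 5.78 CPM in set 1, and 4.98, 3.75 and 5.48 CPM in set 2.

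LAMA3 (chr18:23689453-23956222, plus strand) encodes the alpha chain and changed by less than LAMB3 in SUM159. In SUM159 it measured 41.7, 38.7 and 29.3 CPM in No gRNA, 48.8, 52.1 and 58.4 CPM in gRNA 4, and 56.6, 45.8 and 59.6 CPM in All gRNA, with no overlap between No gRNA and either targeted group. It rose by a log2 fold change of 0.54 ± 0.14 in gRNA 4 (moderated adjusted p = 0.0243) and 0.58 ± 0.14 in All gRNA (adjusted p = 0.0178). By the moderated test the rise was lost without No gRNA replicate 3, the lowest library (0.39, adjusted p = 0.0867, in gRNA 4 and 0.42, adjusted p = 0.0646, in All gRNA). It was also lost without gRNA 4 replicate 2 (adjusted p = 0.0571) or 3 (0.0918), without All gRNA replicate 1 (0.0568) or 3 (0.0677), and with only the compared groups' libraries in the fit (0.55, adjusted p = 0.056, in gRNA 4 and 0.58, adjusted p = 0.0706, in All gRNA). In MDA-MB-231 the 9 libraries of No gRNA, set 1 and set 2 lay together between 60.9 and 79.3 CPM, with log2 fold changes of -0.05 (95% interval -0.29 to 0.19) in set 1 and -0.13 (-0.36 to 0.11) in set 2.

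Levels of different genes were compared per kilobase of the canonical transcript (CPM per kb). In SUM159 No gRNA the laminin chains stood at 3.43 ± 0.61 (SD, n = 3) for LAMA3 and 26.7 ± 1.9 CPM per kb for LAMB3, and COL17A1 stood at 100.8 ± 2.5 CPM per kb. In All gRNA they stood at 5.07 ± 0.68, 102 ± 8 and 272 ± 5 CPM per kb. In all 5 SUM159 groups but wild type of run 2, COL17A1 was above LAMB3 on this scale. In that group LAMB3 was higher, at 17.6 ± 1.8 against 6.22 ± 0.46 CPM per kb. In MDA-MB-231, LAMB3 was the highest and COL17A1 the lowest of these genes in all 4 groups, with set 1 at 827 for LAMB3, 6.77 for LAMA3 and 2.76 CPM per kb for COL17A1. Counts of a gene sum all its transcripts, and LAMA3 has coding transcripts of 462 to 10651 bases, so a shorter length would raise its level on this scale.

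**Figure D2:**
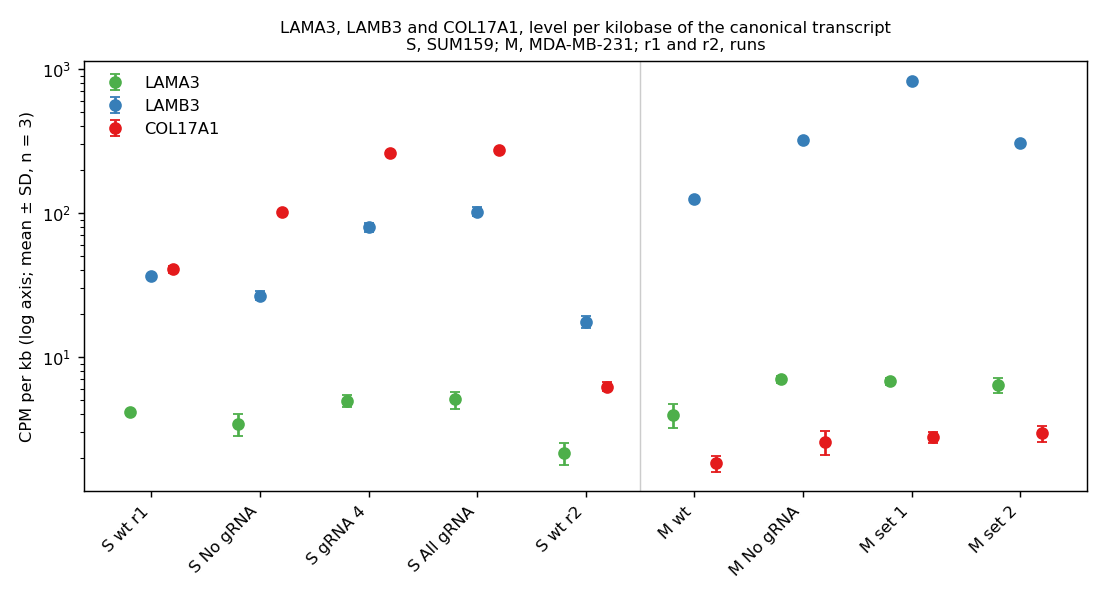
Level of the laminin chains LAMA3 and LAMB3 and of COL17A1 in CPM per kb (log axis; mean and SD of 3 libraries) in the 9 groups; S marks SUM159, M MDA-MB-231, r1 and r2 the runs. LAMA3 lies between 2.14 and 7.00 in every group, while LAMB3 spans 17.6 to 827 and COL17A1 1.83 to 272.

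COL17A1 (chr10:104031286-104085880, minus strand), the transmembrane collagen of the hemidesmosome, rose in SUM159. Its level went from 582, 555 and 560 CPM in No gRNA to 1445, 1482 and 1501 CPM in gRNA 4 and to 1507, 1510 and 1560 CPM in All gRNA. The 6 targeted libraries were all above No gRNA. The log2 fold change was 1.38 ± 0.04 in gRNA 4 (2.60-fold, TREAT adjusted p = 0.00039) and 1.44 ± 0.04 in All gRNA (2.71-fold, TREAT adjusted p = 0.000135). In MDA-MB-231 its level was 13.2, 12.4 and 17.5 CPM in No gRNA, 15.1, 14.4 and 17.0 CPM in set 1, and 18.9, 15.6 and 15.2 CPM in set 2. These ranges overlapped, with log2 fold changes of 0.12 (95% interval -0.21 to 0.44) and 0.22 (-0.09 to 0.54). Without No gRNA replicate 3, the highest of its group, set 2 was higher by 0.37 (moderated adjusted p = 0.0452).

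Of the 4 basal or myoepithelial markers, 1 rose and 1 fell in All gRNA, and 1 rose and 0 fell in gRNA 4. The one that rose was TP63, a transcription factor of basal epithelial cells. TP63 measured 121, 117 and 121 CPM in No gRNA, 200, 207 and 199 CPM in gRNA 4, and 185, 169 and 168 CPM in All gRNA, and rose by 0.75 and 0.55 on the log2 scale (moderated adjusted p = 2.84e-06 and 4.44e-05). In MDA-MB-231 it was at most 0.966 CPM in any library. KRT5, a keratin of basal cells, went the other way, from a mean of 7.34 CPM in SUM159 No gRNA to 4.07 CPM in All gRNA (log2 fold change -1, moderated adjusted p = 0.0439) and 4.26 CPM in gRNA 4 (-0.80, adjusted p = 0.0942). The summed level of the 4, most of it TP63 in SUM159, was 147 to 149 CPM in SUM159 No gRNA, 220 to 231 CPM in gRNA 4 and 191 to 207 CPM in All gRNA, and 3.86 to 10.6 CPM in the MDA-MB-231 libraries. The part of these markers in the COL17A1 result was not tested. TP63 and KRT5 were singled out after their values were seen.

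The integrin chains changed by less than LAMB3 in SUM159. ITGB4 (chr17:75721328-75757818, plus strand), the chain that reaches the keratin-linked plaque, measured 459, 435 and 468 CPM in SUM159 No gRNA, 641, 688 and 685 CPM in gRNA 4, and 763, 674 and 725 CPM in All gRNA. It rose by 0.56 ± 0.05 (moderated adjusted p = 3.55e-05) and 0.67 ± 0.05 (adjusted p = 6.94e-06) on the log2 scale, again with no overlap with No gRNA. In MDA-MB-231 it was 240, 258 and 241 CPM in No gRNA, 282, 288 and 271 CPM in set 1, and 332.3, 319 and 276 CPM in set 2. Both sets were above No gRNA in every library, but only set 2 passed the moderated test (0.34 ± 0.07, adjusted p = 0.0024; set 1 0.19 ± 0.08, adjusted p = 0.0736). Set 1 passed with only the compared groups' libraries in the fit (0.18, adjusted p = 0.0241). The difference between the sets did not pass (0.15, adjusted p = 0.106; 0.23, adjusted p = 0.0137 without set 2 replicate 3).

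Its partner ITGA6 (chr2:172427354-172506459, plus strand) did not pass the test in any of the 4 comparisons. SUM159 No gRNA held 337, 365 and 292 CPM, gRNA 4 held 420, 409 and 369 CPM, and All gRNA held 324, 406 and 376 CPM, so that the All gRNA and No gRNA libraries overlapped. The log2 differences were 0.27 (95% interval 0.07 to 0.47, moderated adjusted p = 0.0912; 0.26, adjusted p = 0.0489 by DESeq2) and 0.16 (-0.04 to 0.36, adjusted p = 0.312). In MDA-MB-231 the 9 libraries lay between 991 and 1152 CPM, with differences of 0.08 (-0.02 to 0.19) in set 1 and 0.05 (-0.05 to 0.16) in set 2.

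ITGA3 (chr17:50055968-50090481, plus strand), the alpha chain of the other laminin-332 receptor, fell in set 2 of MDA-MB-231. It measured 1448, 1530 and 1561 CPM in No gRNA, 1688, 1669 and 1585 CPM in set 1, and 1147, 1048 and 1027 CPM in set 2. All set 2 libraries were under No gRNA, a log2 fold change of -0.49 ± 0.04 (moderated adjusted p = 3.24e-06), and all set 1 libraries were above it, by 0.12 ± 0.04 (adjusted p = 0.0348). The rise in set 1 was lost without No gRNA replicate 1 or 2 or set 1 replicate 1 or 2 (0.09 to 0.12, adjusted p 0.0699 to 0.129), by edgeR (adjusted p = 0.0664), by DESeq2 (0.111), with only the compared groups' libraries in the fit (0.057) and with library totals in place of TMM (0.04, adjusted p = 0.501). Set 2 differed from set 1 by -0.61 ± 0.04 (adjusted p = 5.32e-07). In SUM159 it rose by 0.29 ± 0.06 in All gRNA (adjusted p = 0.00673), where 982, 1003 and 1044 CPM stood above 837, 833 and 815 CPM. In gRNA 4 it was 830, 942 and 963 CPM, overlapping No gRNA (0.13, adjusted p = 0.194), and without gRNA 4 replicate 1 the difference was 0.19 (adjusted p = 0.039).

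**Figure D3:**
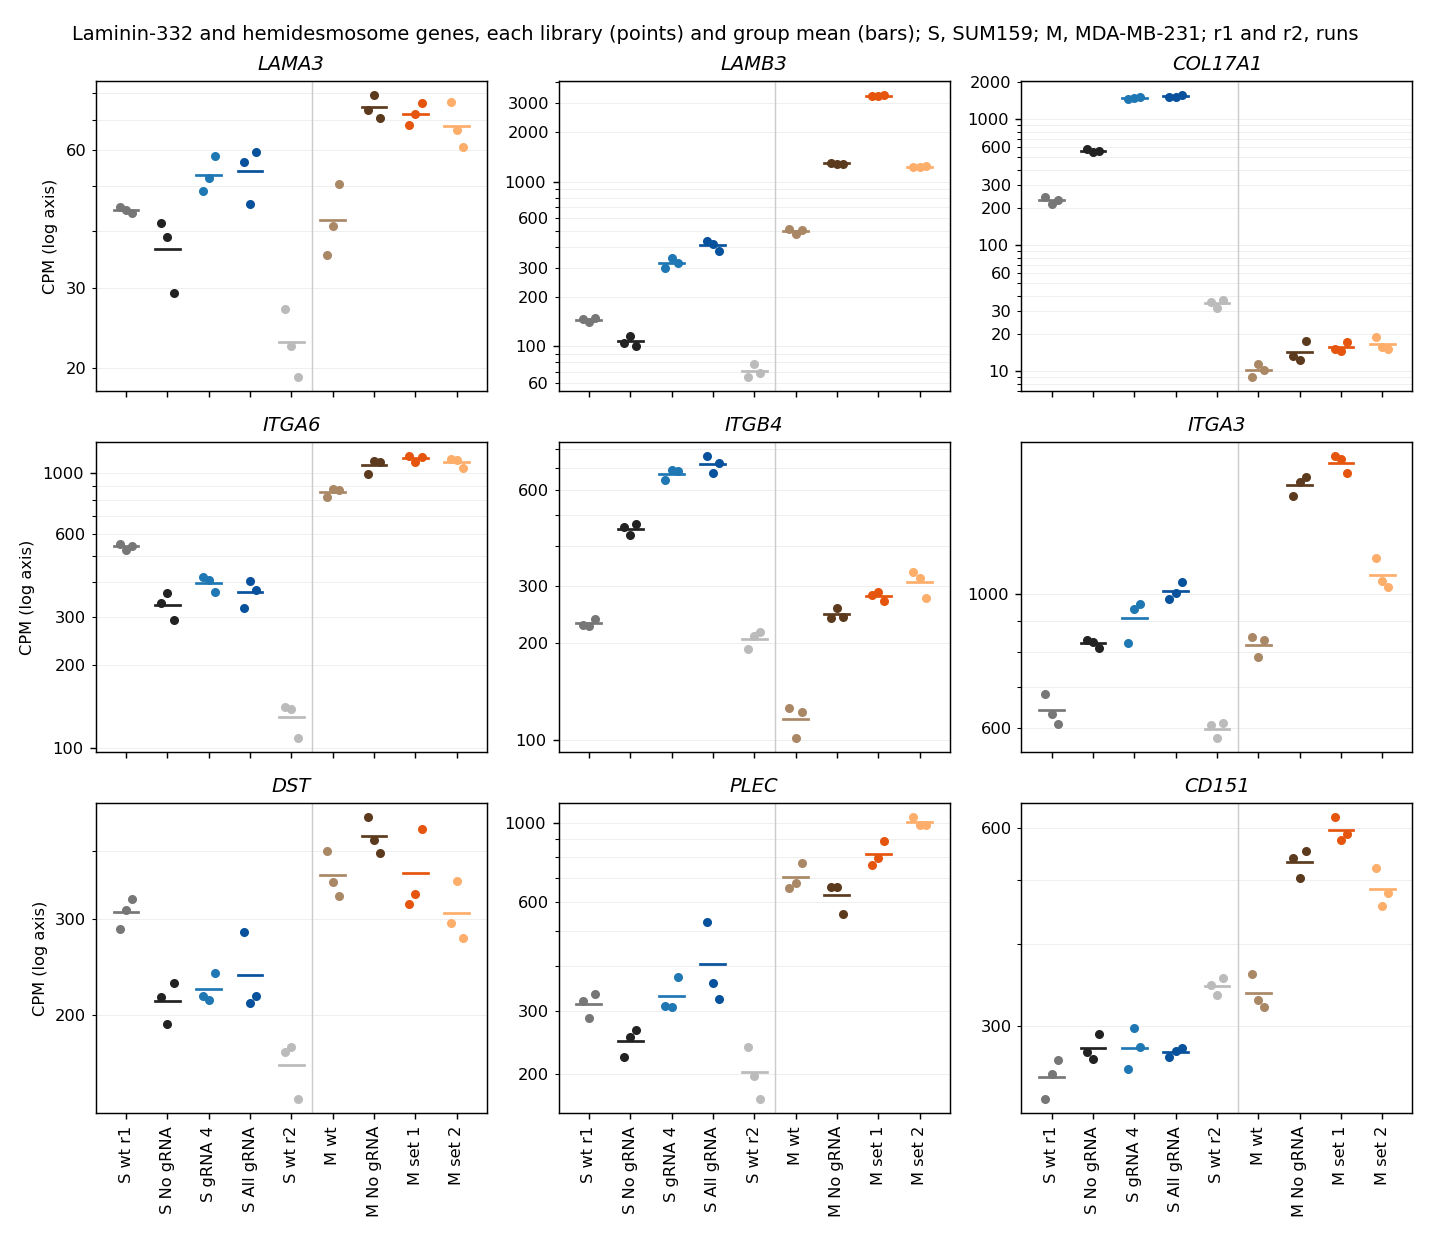
CPM of each of the 9 genes in every library (points; log axis) with the group mean (bar) over 9 groups of 3; S marks SUM159, M MDA-MB-231, wt wild type, r1 and r2 the runs. COL17A1 runs from 8.98 CPM in MDA-MB-231 wild type to 1560 CPM in SUM159 All gRNA, and LAMB3 from 65.0 CPM in SUM159 wild type of run 2 to 3345 CPM in MDA-MB-231 set 1.

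Of the plakins, PLEC (chr8:143915153-143976734, minus strand), the cytolinker plectin, rose in both MDA-MB-231 sets. In SUM159 passing the moderated test depended on the fit. In MDA-MB-231 it was 661, 664 and 557 CPM in No gRNA, 762, 799 and 890 CPM in set 1, and 1036, 985 and 982 CPM in set 2, without overlap with No gRNA. The log2 fold change was 0.38 ± 0.08 in set 1 (moderated adjusted p = 0.00315) and 0.69 ± 0.08 in set 2 (adjusted p = 1.66e-05), and set 2 was above set 1 by 0.31 ± 0.07 (adjusted p = 0.00425). In SUM159 the level was 223, 253 and 265 CPM in No gRNA, 310, 307 and 373 CPM in gRNA 4, and 530, 358 and 323 CPM in All gRNA. Replicate 1 of All gRNA stood well above the other libraries. The rise in All gRNA was 0.68 ± 0.16 (adjusted p = 0.0191) and was lost without No gRNA replicate 1 (0.61, adjusted p = 0.0743) or 2 (0.70, adjusted p = 0.056), and with only the compared groups' libraries in the fit (0.68, adjusted p = 0.067). Leaving out All gRNA replicate 1 gave the lowest of the leave-one-out values, 0.46, which still passed the moderated test. In gRNA 4 the difference was 0.41 (adjusted p = 0.148), and it passed with only the compared groups' libraries in the fit (0.41, adjusted p = 0.0422).

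DST (chr6:56457987-56954830, minus strand), which encodes dystonin in epithelial, neuronal and muscle forms, fell in set 2 of MDA-MB-231. Its level was 461, 419 and 396 CPM in No gRNA, 319, 332.3 and 438 CPM in set 1, and 295, 352 and 276 CPM in set 2. Set 2 lay under No gRNA in every library (-0.46 ± 0.12, moderated adjusted p = 0.00826). Set 1 overlapped No gRNA through its replicate 3 (-0.25, adjusted p = 0.129), and it fell by 0.38 on the log2 scale without that library (adjusted p = 0.0184) and by 0.33 with library totals in place of TMM (adjusted p = 0.0488). In SUM159 the groups overlapped, at 192 to 229 CPM in No gRNA, 213 to 239 CPM in gRNA 4 and 211 to 284 CPM in All gRNA, with differences of 0.06 (95% interval -0.18 to 0.30) and 0.15 (-0.09 to 0.39). The counts pool the forms of DST, whose 20 coding transcripts run from 490 to 24709 bases.

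CD151 (chr11:832887-839831, plus strand), the tetraspanin, did not pass the test in SUM159, where it was 273, 267 and 292 CPM in No gRNA, 258, 298 and 278 CPM in gRNA 4, and 270, 275 and 277 CPM in All gRNA. The 3 groups overlapped, and the 95% intervals of the log2 differences were -0.14 to 0.13 and -0.15 to 0.12. In MDA-MB-231 it was 540, 503 and 553 CPM in No gRNA, 623, 575 and 586 CPM in set 1, and 521, 456 and 477 CPM in set 2. The rise in set 1 was 0.16 ± 0.05 (moderated adjusted p = 0.0416). It was lost without No gRNA replicate 1 (adjusted p = 0.0710) or 2 (0.177) or set 1 replicate 1 (0.165) or 3 (0.0680), by edgeR (0.0596), by DESeq2 (0.0766) and with library totals in place of TMM (0.07, adjusted p = 0.299). Set 2 differed from No gRNA by -0.13 (adjusted p = 0.0799; -0.18 with adjusted p = 0.0266 without set 2 replicate 1) and from set 1 by -0.28 ± 0.06 (adjusted p = 0.00135). CD151 shares 257 of its 3894 exon bases with POLR2L on the other strand. The strandedness of the libraries is not given in the sources used here, so reads of these genes, POLR2L at a mean of 118 CPM, cannot be told apart there.

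All gRNA and gRNA 4 were compared with each other in SUM159, which asks whether the pool of guides acted beyond guide 4. ZEB1 was lower in All gRNA (0.806, 0.375 and 1.02 CPM, against 4.54, 3.25 and 2.56 CPM in gRNA 4; log2 fold change -2.25, moderated adjusted p = 0.0165). No member was called by TREAT, nor was any gene (0% of 15147; 32 genes and 0 members at an unadjusted p under 0.05, and 0 members by edgeR and DESeq2). LAMB3 was higher in All gRNA by 0.37 ± 0.07 (moderated adjusted p = 0.0282), the 1 member of 9 that changed, where 0.944% of genes did. That difference no longer passed the moderated test without gRNA 4 replicate 1 (0.32, adjusted p = 0.104) or 3 (0.37, adjusted p = 0.0797), and without All gRNA replicate 1 (0.32, adjusted p = 0.0800) or 2 (0.36, adjusted p = 0.0913), and with only the compared groups' libraries in the fit (0.37, adjusted p = 0.148). For COL17A1 the difference was 0.06 (95% interval -0.02 to 0.14).

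No gRNA cells, which carry dCas9-KRAB without a guide, also differed from wild type cells in several members. In SUM159, COL17A1 was 242, 214 and 230 CPM in wild type of run 1, and thus 2.46-fold higher in No gRNA (log2 fold change 1.30 ± 0.05, TREAT adjusted p = 0.00389), the 1 member called (1.53% of genes). By the moderated test 3 members were higher and 3 lower in No gRNA (21% and 21.9% of genes, 42.9% in all). ITGB4 rose by 0.97 ± 0.06 (adjusted p = 2.26e-07) from 228, 226 and 238 CPM, and ITGA3 by 0.36 ± 0.06 (adjusted p = 0.000478). ITGA6, the partner of ITGB4, was lower (-0.72 ± 0.09, adjusted p = 5.43e-05), from 552, 527 and 544 CPM in wild type. DST (-0.55 ± 0.11, adjusted p = 0.0014) and LAMB3 (-0.45 ± 0.08, adjusted p = 0.00103) were also lower, LAMB3 from 147, 140 and 149 CPM. LAMA3 differed by -0.31 (adjusted p = 0.0878; -0.42, adjusted p = 0.0451 without No gRNA replicate 1), PLEC by -0.35 (adjusted p = 0.102; -0.34, adjusted p = 0.0118 with only the compared groups' libraries in the fit) and CD151 by 0.14 (adjusted p = 0.0897). Of 4 basal or myoepithelial markers, 3 were higher in No gRNA than in wild type and 1 was lower by the moderated test. The lower one was TP63 (-1.12, moderated adjusted p = 2.67e-08).

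In MDA-MB-231, LAMB3 rose from 514, 483 and 508 CPM in wild type to its No gRNA level, 2.46-fold (1.30 ± 0.02, TREAT adjusted p = 4.33e-06), again the 1 member called (3.6% of genes). The moderated test gave 7 members higher and 1 lower (26.2% and 27.6% of genes, 53.8% in all). ITGB4 rose by 1.03 ± 0.09 (adjusted p = 1.80e-06), from 126, 101 and 122 CPM. ITGA3 rose by 0.82 ± 0.05 (adjusted p = 5.79e-08), LAMA3 by 0.77 ± 0.12 (adjusted p = 0.000212), CD151 by 0.60 ± 0.06 (adjusted p = 6.33e-06) and ITGA6 by 0.26 ± 0.05 (adjusted p = 0.00115). COL17A1 rose by 0.41 ± 0.16 (adjusted p = 0.0444). This rise was lost without wild type replicate 1 (0.32, adjusted p = 0.151) or 3 (0.41, adjusted p = 0.0983) or No gRNA replicate 3 (0.26, adjusted p = 0.166), and with only the compared groups' libraries in the fit (0.42, adjusted p = 0.0715). PLEC was lower (-0.23 ± 0.08, adjusted p = 0.0314). Its difference no longer passed the moderated test without wild type replicate 3 (-0.16, adjusted p = 0.13) or No gRNA replicate 3 (-0.15, adjusted p = 0.131), and with only the compared groups' libraries in the fit (-0.22, adjusted p = 0.0588). ZEB1 was 1.51-fold higher in No gRNA than in wild type.

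The choice of control therefore set the size and, for some members, the direction of a difference. Relative to wild type, ITGB4 stood 1.64 higher on the log2 scale in All gRNA and 1.52 in gRNA 4, and COL17A1 2.73 and 2.67. ITGA6 was lower than wild type in the same groups (-0.56, moderated adjusted p = 0.000245, and -0.46, adjusted p = 0.00113), and so was DST (-0.40, adjusted p = 0.00749, and -0.48, adjusted p = 0.00267). LAMA3 (0.27, adjusted p = 0.103, and 0.23, adjusted p = 0.157) and PLEC (0.33, adjusted p = 0.1, and 0.05, adjusted p = 0.805) did not pass the test against wild type. In MDA-MB-231 LAMB3 of set 2 was higher than wild type by 1.24 (adjusted p = 2.82e-11), against -0.06 relative to No gRNA. By the moderated test 8 members of set 2 (17.8% of genes) and 7 of set 1 (29.6% of genes) were higher than wild type. LAMB3 in set 1 stood 2.66 above wild type. PLEC in set 1 (0.15, adjusted p = 0.128) and DST in set 2 (-0.27, adjusted p = 0.116) no longer passed the test.

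**Figure D4:**
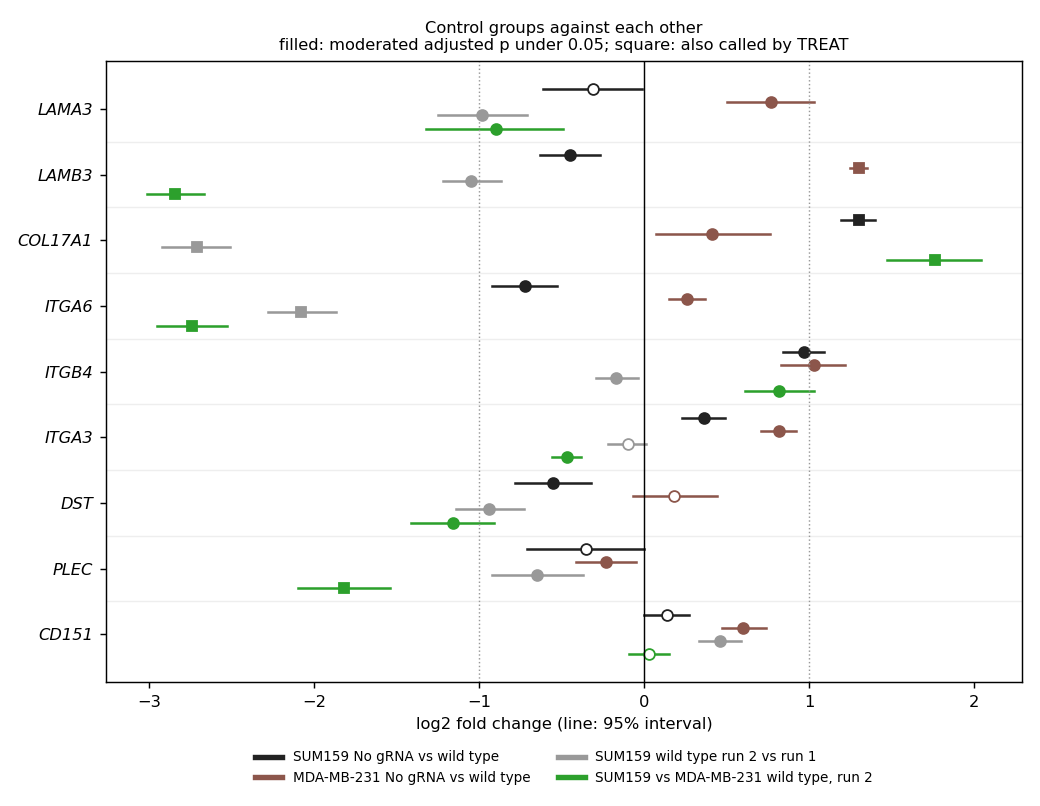
Log2 fold change of each of the 9 genes (rows) between control groups, with 95% intervals: No gRNA relative to wild type in each line, SUM159 wild type of run 2 relative to run 1, and SUM159 relative to MDA-MB-231 wild type within run 2; filled symbols passed the moderated test and squares were also called by TREAT. COL17A1 is 1.30 higher in SUM159 No gRNA and -2.71 in run 2, and ITGA6 is -2.08 in run 2.

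The response to ZEB1 targeting (the mean of both targeted groups relative to No gRNA) was compared between the lines in a fit of 24 libraries. The difference was above 0, higher in SUM159, for 6 members by the moderated test (13% of genes, 25.4% in either direction), and 0 members passed TREAT (0.954% of genes; 2 members at an unadjusted p under 0.05, and 0 by edgeR and DESeq2). COL17A1 had the largest difference, 1.41 in SUM159 against 0.15 in MDA-MB-231 (difference 1.26 ± 0.13, adjusted p = 2.52e-07). LAMB3 stood at 1.76 against 0.63 (difference 1.13 ± 0.06, adjusted p = 6.23e-11), where the second value averages set 1, at 1.36, and set 2, at -0.06. PLEC responded by 0.54 and 0.51 (difference 0.03, 95% interval -0.31 to 0.38). By column prefix, SUM159 libraries other than wild type of run 2 were taken as run 1 and MDA-MB-231 libraries as run 2. Line and run therefore cannot be told apart here.

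SUM159 wild type libraries were placed in both runs and differed between them. COL17A1 measured 242, 214 and 230 CPM in run 1 and 35.6, 32.1 and 37.1 CPM in run 2 (log2 fold change -2.71 ± 0.09, TREAT adjusted p = 4.13e-05), and ITGA6 measured 552, 527 and 544 CPM in run 1 and 142, 139 and 109 CPM in run 2 (-2.08 ± 0.09, TREAT adjusted p = 0.000264). These 2 members were called where 6.65% of 14337 genes were, and 8 of the 9 passed the moderated test, 7 lower and CD151 higher (30.9% and 31.3% of genes, 62.1% in all). LAMB3 (-1.05 ± 0.07), LAMA3 (-0.98 ± 0.11), DST (-0.94 ± 0.09) and PLEC (-0.65 ± 0.11) were lower, each at an adjusted p of 0.00222 or less. ITGB4 and ITGA3 moved least (-0.17, adjusted p = 0.0273, and -0.10, adjusted p = 0.102). The ITGB4 difference no longer passed the moderated test without run 1 replicate 3 (adjusted p = 0.0634) or run 2 replicate 1 (0.111) or 2 (0.0669), and ITGA3 passed without run 1 replicate 3 (-0.15, adjusted p = 0.0356). TP63 was lower as well, at a mean of 35.1 CPM against 257 CPM. The labels do not say whether the cells differed in passage or date between the runs.

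Within run 2, wild type cells of the lines were compared directly. LAMB3 (-2.84 ± 0.07), ITGA6 (-2.74 ± 0.09) and PLEC (-1.82 ± 0.12) were lower in SUM159 and COL17A1 was higher (1.76 ± 0.12), and these 4 members were called where 29.1% of 15110 genes were. ITGB4 was higher in SUM159 (0.82 ± 0.09), and DST (-1.16 ± 0.10), LAMA3 (-0.90 ± 0.18) and ITGA3 (-0.47 ± 0.04) were lower, all past the moderated test, for 8 changed members in all (75.5% of genes changed). CD151 stood at 335 to 355 CPM in SUM159 and 320 to 360 CPM in MDA-MB-231, overlapping (0.03, 95% interval -0.09 to 0.15).

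Over all 9 groups the mean level of COL17A1 ranged 149-fold, that of LAMB3 46.9-fold and that of ITGA6 8.71-fold, whereas CD151 (2.37-fold), DST (2.63-fold), ITGA3 (2.75-fold) and LAMA3 (3.27-fold) varied least. ITGB4 ranged 6.196-fold and PLEC 4.95-fold. In order of its level, COL17A1 fell from All gRNA, gRNA 4, No gRNA, wild type run 1 and wild type run 2 of SUM159 to the 4 MDA-MB-231 groups. Neighbouring SUM159 groups in that order did not overlap, while set 2, set 1 and No gRNA of MDA-MB-231 did. The LAMB3 order was set 1, No gRNA, set 2 and wild type of MDA-MB-231 followed by All gRNA, gRNA 4, wild type run 1, No gRNA and wild type run 2 of SUM159, with no overlap between neighbours. For ITGA6 and PLEC all 4 MDA-MB-231 groups were above all SUM159 groups. Per kilobase, ITGA6 was above ITGB4 in MDA-MB-231 No gRNA (183 ± 11 against 41.7 ± 1.7 CPM per kb) and under it in SUM159 No gRNA (57.0 ± 6.4 against 77 ± 2.9 CPM per kb).

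Other genes of the matrix and of its attachment were read from fixed lists. The counts for all these lists stand beside the shares over all genes. TREAT called 0.396% in All gRNA, 0.39% in gRNA 4, 1.47% in set 1 and 4.14% in set 2. The moderated test gave 10.8%, 11%, 37.8% and 52.4% in the same order. Of 16 other basement membrane genes, 9 were tested in SUM159 with no TREAT call, and 11 in MDA-MB-231 with 3 called in set 1 and 2 in set 2, all higher. By the moderated test 1 was higher and 1 lower in All gRNA, 0 and 2 in gRNA 4, 7 and 0 in set 1, and 5 and 2 in set 2. LAD1, the basement membrane-associated protein ladinin, was at 0 CPM in MDA-MB-231 No gRNA, 2.02 to 3.07 CPM in set 1 and 1.82 to 2.42 CPM in set 2. Against a floor of 3 counts per library it was at least 14.3-fold higher in set 1 and at least 12.6-fold higher in set 2. COL4A3, a type IV collagen chain, reached 2.98 to 3.69 CPM in set 1, at least 20.7-fold over the same floor. In set 2 its libraries held 0.085, 0.334 and 1.32 CPM, with a mean at least 3.47-fold over that floor. COL4A4, the chain encoded beside it, rose from 1.77 to 1.96 CPM to 12.8 to 15.2 CPM in set 1 (2.89, TREAT adjusted p = 8.46e-06) and 10.3 to 11.5 CPM in set 2 (2.56, TREAT adjusted p = 2.63e-05). These are low levels beside those of the laminin chains.

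Of 10 other laminin receptors and tetraspanins, all tested, CD82, a tetraspanin, was the single TREAT call: it was lower in set 2 (-1.61 ± 0.06, adjusted p = 2.77e-05), from 174, 185 and 192 CPM to 63.0, 56.8 and 60.6 CPM. By the moderated test 1 of these was higher and 0 lower in All gRNA, 0 and 2 in gRNA 4, 2 and 2 in set 1, and 2 and 1 in set 2. Of 8 proteases known to process laminin-332 or its cell surface, 6 were tested in each line. MMP2 was called lower in set 2 (-2.53 ± 0.29, TREAT adjusted p = 0.00519), from 5.37 to 7.77 CPM to 0.727 to 1.55 CPM. The moderated counts for this list were 2 higher and 1 lower in All gRNA, 0 and 2 in gRNA 4, 1 and 2 in set 1, and 0 and 3 in set 2.

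Of 9 other plakins and basal keratins, 7 were tested in SUM159 and 8 in MDA-MB-231. DSP, the desmosomal plakin, was called higher in all 4 comparisons: from 62.2, 64.7 and 61.8 CPM in SUM159 No gRNA to 174, 182 and 184 CPM in gRNA 4 (1.51 ± 0.07) and 205, 177 and 179 CPM in All gRNA (1.57 ± 0.07), and from 140, 141 and 123 CPM in MDA-MB-231 No gRNA to 431, 460 and 526 CPM in set 1 (1.80 ± 0.08) and 360, 370 and 367 CPM in set 2 (1.45 ± 0.08). EPPK1, epiplakin, was called in set 1 (5.08 ± 0.37) and set 2 (4.20 ± 0.38), from 0.113 to 0.232 CPM to 5.56 to 7.05 and 3.25 to 3.97 CPM. Of the hemidesmosomal plakins, DST, whose forms are pooled, rose in none of the 4 comparisons. PLEC rose in set 1 (0.38), in set 2 (0.69) and, depending on the fit, in All gRNA (0.68). The moderated test gave 1 higher and 1 lower in each SUM159 comparison, 4 and 0 in set 1, and 3 and 1 in set 2. Among 10 focal adhesion genes, FERMT1, a kindlin that activates integrins, was called in set 1 (1.95 ± 0.10) and set 2 (2.16 ± 0.10). It stood at 31.9 to 40.5 CPM in No gRNA, 133 to 144 CPM in set 1 and 150 to 179 CPM in set 2. In SUM159 FERMT1 lay between 41.4 and 53.9 CPM in all 9 dCas9-KRAB libraries. By the moderated test 1 of the 10 was higher in All gRNA, 0 changed in gRNA 4, 7 were higher in set 1, and 7 were higher and 2 lower in set 2.

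The patterns of the members over the 9 group means were set beside each other and beside 17146 genes, as a description over groups that share a line and a run. LAMB3 followed PLEC (Pearson r = 0.915 on log2 CPM), ITGA3 (0.914) and LAMA3 (0.889) most closely. COL17A1 followed ITGB4 (r = 0.827), and its r with LAMB3 was -0.494. ITGA6 followed DST (0.94) and PLEC (0.919), and its r with its partner ITGB4 was -0.248. Of all genes, those most like LAMB3 were HELZ2 (0.983), CHST15 (0.981) and TMEM132A (0.98), and those most like COL17A1 were UGT1A6 (0.998), KRT6A (0.997) and TREM2 (0.993). UGT1A6 shares exons with other UGT1A genes and KRT6A is nearly identical to its paralogs, so the counts of these 2 are uncertain.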

How the data were processed

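The authors sequenced RNA of 27 libraries with single reads of 50 bp. They deposited gene-level estimated counts (expected counts), made with Salmon and tximport, corrected for transcript length and not scaled between libraries. The genome build in the submitters' processing notes is GRCh38. The versions, annotation and strandedness are not given in the sources used here.

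Groups came from the sample labels, and all 27 libraries were used. Of 57165 identifiers 56347 matched GENCODE names. Genes were kept with edgeR 4.0.16 filterByExpr (minimum count 10), scaled by TMM and fitted with limma 3.58.1 voom in R 4.3.3. Each line's 12 libraries were fitted together. The run comparison used 6 libraries and the comparison of responses 24. TREAT used a log2 fold change of 1, and both tests an adjusted p of 0.05 (Benjamini-Hochberg over all genes tested). DESeq2 1.42.0 served as an alternative. The tests weigh a difference against the spread between the libraries of a group. The labels call these biological replicates and the methods individual clones, and whether each was a separate transduction is not stated. With 3 against 3 an exact permutation test cannot go under p = 0.1, so single values were not tested that way. Scripts were tested on simulated data.

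One gene list is not reported here. The 9 members and the lists were chosen with earlier results of these data known. Named were all members, ZEB1, and of each list at most 4 genes, those called by TREAT in a comparison with No gRNA, and for members so called the 3 genes most like them. Outside this rule, CDH1, EPCAM, ESR1, PGR and ERBB2 were named as checks of the labels, POLR2L for its overlap with CD151, and TP63, KRT5 and PECAM1 after their values were seen. Precision is limited by 3 libraries a group. Replicates of a group differed by more than sampling noise (chi-square per degree of freedom 7.47 to 17.4 on rounded estimated counts). That check cannot show that they are independent, and all were counted separately because the labels call them biological replicates.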

Additional observations from a re-analysis of the deposited data

Results flagged for a closer look

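The response to ZEB1 targeting differed between the cell lines for 6 members by the test of the difference itself (voom-limma with Benjamini-Hochberg adjustment over 17182 genes; the response is the mean of both targeted groups relative to No gRNA). Of all genes 25.4% passed this test, 13% with the difference above 0 as for these members. The log2 difference, SUM159 minus MDA-MB-231, was 1.26 for COL17A1 (adjusted p = 2.52e-07), 1.13 for LAMB3 (adjusted p = 6.23e-11) and 0.67 for LAMA3 (adjusted p = 0.00335). For ITGA3 it was 0.42 (adjusted p = 5.66e-05), for ITGB4 0.38 (adjusted p = 0.00185) and for DST 0.48 (adjusted p = 0.0239). ITGA3 and DST lay above 0 in SUM159 (0.21 and 0.11) and under 0 in MDA-MB-231 (-0.20 and -0.37). The MDA-MB-231 value of ITGA3 averages set 1, where it rose by 0.12, and set 2, where it was -0.49, and that of DST averages -0.25 and -0.46. The DST difference was lost without SUM159 No gRNA replicate 2 (0.41, adjusted p = 0.0847) or MDA-MB-231 No gRNA replicate 1 (0.43, adjusted p = 0.0685). The lines were placed in different runs by the unexplained prefix of their column names, and line and run cannot be told apart. The differences of COL17A1 (2.39-fold) and LAMB3 (2.19-fold) were estimated above 2-fold. No member passed TREAT after adjustment, and 2 did at an unadjusted p under 0.05.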

How the results depend on the processing

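Of 1620 recalculated member values, 1489 kept their direction and their side of the threshold; 66 lost it, 21 gained it and 44 changed sign. The 80 values of LAMB3 and COL17A1 in SUM159 and of LAMB3 in set 1 relative to No gRNA all kept both under every alternative run (DESeq2 size factors, library totals, filters, edgeR, DESeq2, sample weights, other libraries in the fit, the replicate block, each library left out, wild type as control). Of 180 recalculated TREAT counts 179 stayed within 1.5 times, and LAMB3 gave 1 call in set 2 with wild type as control. The All gRNA count was 3 against wild type and 2 against No gRNA, which is within that limit. With wild type as control the moderated count became 7 in set 1 and 8 in set 2, and signs turned for ITGA6 (All gRNA -0.56, gRNA 4 -0.46), DST (-0.40, -0.48), CD151 (0.12, 0.13; set 2 0.48), LAMA3 (set 1 0.71, set 2 0.64), LAMB3 (set 2 1.24) and ITGA3 (set 2 0.33). The moderated count in set 1 was 2 with DESeq2 size factors, with edgeR and with the DESeq2 test, and 2 to 4 with a library left out. For All gRNA relative to gRNA 4 it was 0 with fewer libraries in the fit, and 0 to 1 with a library left out. The other 33 changes of sign were of differences near 0, and the reversed values were at most 0.08 in size. With a library left out, CD151 ran from -0.04 to 0.02 in All gRNA, -0.06 to 0.04 in gRNA 4, -0.06 to 0.04 between the guides, -0.01 to 0.07 between the lines and -0.03 to 0.03 in the comparison of responses, DST from -0.01 to 0.12 in gRNA 4 and -0.05 to 0.17 between the guides, ITGA6 from 0 to 0.10 in set 2 and -0.05 to 0.01 between the sets, LAMA3 from -0.04 to 0.15 between the guides, and PLEC from -0.08 to 0.11 in the comparison of responses. Library totals gave ITGA6 0 in set 1 and -0.01 in set 2, and CD151 -0.04 between the lines and 0.01 for the responses. Sample weights gave LAMA3 -0.03 between the guides and PLEC 0 for the responses, and weights and edgeR gave CD151 0 there. The cause was not tested.

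Same-numbered libraries of compared groups did not deviate together (r -0.065 to 0.045), so the numbers pair nothing. With the replicate block the moderated count fell from 1 to 0 for All gRNA relative to gRNA 4 (LAMB3 0.37, adjusted p = 0.0603) from 4 to 3 in set 1 (ITGA3) and from 8 to 7 for MDA-MB-231 No gRNA relative to wild type (COL17A1), and rose from 5 to 6 in set 2 (CD151). The other moderated counts and all TREAT counts of members were the same under the block.

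The guide conditions of set 1 and set 2 stay unassigned. Estimated counts pool transcripts of a gene, so the forms of DST, LAMA3 and ITGA6 were not separated, and reads of CD151 and POLR2L cannot be told apart where they overlap. Wild type SUM159 differed between runs in 8 of 9 members by the moderated test, where 62.1% of genes did, which limits any comparison across lines.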
